A study of Mus musculus with 24 samples.

Results

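The 10 genes described here were Gad1, Gad2, Slc32a1, Sst, Pvalb, Vip, Npy, Cck, Lhx6 and Erbb4, a set of inhibitory neuron genes together with a receptor of inhibitory neurons. They were found by symbol in the deposited table of read counts, which lists 24421 genes, and all 10 were among the 16316 genes with enough reads to test. They were chosen by what earlier genotype comparisons of the same libraries had measured. Their differences between genotypes are therefore given as a description. How many of them passed the test used for all genes is printed once, beside the share of all genes, and nothing is read from it. Tests are given for sex, for co-variation within genotypes and for 112 further genes of the same cells and pathways. The lists of these further genes were also chosen with earlier results of these data known, so their counts and shares are a description too.

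Each library came from the cortex of 1 mouse aged 7.5 months, and all 24 mice carried 5xFAD, human amyloid precursor protein and presenilin 1 transgenes with familial Alzheimer's disease mutations, expressed in neurons from the Thy1 promoter. The series was set up to ask how loss of the phospholipase PLCG2 or of the receptor TREM2 changes the response to amyloid. The 6 WT mice were wild type for Plcg2 and Trem2, the 6 Trem2KO mice lacked Trem2, the 6 Plcg2KO mice were homozygous for a Plcg2 knockout and the 6 Plcg2HET mice were heterozygous for it. There were 3 males and 3 females per genotype, except for Plcg2KO with 4 males and 2 females. The label code names each mouse, with M or F for its sex. No mice without 5xFAD were analysed here.

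Inhibitory neurons of the cortex make the transmitter GABA from glutamate with the decarboxylases GAD67, the product of Gad1, and GAD65, the product of Gad2. The vesicular transporter VGAT, the product of Slc32a1, loads GABA into synaptic vesicles. Most of these cells are local interneurons that fall into classes marked by parvalbumin (Pvalb), somatostatin (Sst) or vasoactive intestinal peptide (Vip). Lhx6 is the transcription factor of the parvalbumin and somatostatin classes, which arise from the medial ganglionic eminence. Neuropeptide Y (Npy) and cholecystokinin (Cck) mark further subsets, and Cck is also made by many cortical excitatory neurons. Erbb4 encodes a receptor tyrosine kinase for neuregulins that is concentrated in interneurons and guides their migration and the synapses made onto and by them.

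Promoter windows from RefSeq on GRCm38.p6, 250 bases before to 50 bases after each annotated start, were available for all 10 genes, in 13 windows. Of these, 4 are printed, 5′ to 3′ on the strand of the gene. Sst is shown because it holds the full cyclic AMP response element (CRE) that peptide genes are known for, Vip because it is the peptide gene whose level differed in both directions, and Gad2 and Erbb4 because all Plcg2KO mice lay above all WT mice for both. Capitals mark matches on either strand to the full CRE TGACGTCA, to its core TGACG, to the TATA box TATAAA or to the homeodomain core TAATTA. A full CRE contains this core on both strands.
Sst: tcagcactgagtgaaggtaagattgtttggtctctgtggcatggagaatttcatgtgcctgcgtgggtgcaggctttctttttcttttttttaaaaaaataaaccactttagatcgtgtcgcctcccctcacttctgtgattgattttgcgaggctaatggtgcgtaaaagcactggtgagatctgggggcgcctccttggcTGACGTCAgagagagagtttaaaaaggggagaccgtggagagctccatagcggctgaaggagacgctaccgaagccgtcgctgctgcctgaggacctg
Vip: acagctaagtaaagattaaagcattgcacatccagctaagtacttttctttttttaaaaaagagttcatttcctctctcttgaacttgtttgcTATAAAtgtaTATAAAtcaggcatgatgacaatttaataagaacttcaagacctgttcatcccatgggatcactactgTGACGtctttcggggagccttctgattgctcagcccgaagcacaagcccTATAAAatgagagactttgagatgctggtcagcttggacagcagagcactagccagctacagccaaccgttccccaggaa
Gad2: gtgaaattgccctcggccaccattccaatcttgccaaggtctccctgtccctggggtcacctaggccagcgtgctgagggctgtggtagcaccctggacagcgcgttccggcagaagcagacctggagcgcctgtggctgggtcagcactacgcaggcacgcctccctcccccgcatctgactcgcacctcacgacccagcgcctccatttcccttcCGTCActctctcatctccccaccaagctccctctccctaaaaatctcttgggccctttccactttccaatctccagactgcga
Erbb4: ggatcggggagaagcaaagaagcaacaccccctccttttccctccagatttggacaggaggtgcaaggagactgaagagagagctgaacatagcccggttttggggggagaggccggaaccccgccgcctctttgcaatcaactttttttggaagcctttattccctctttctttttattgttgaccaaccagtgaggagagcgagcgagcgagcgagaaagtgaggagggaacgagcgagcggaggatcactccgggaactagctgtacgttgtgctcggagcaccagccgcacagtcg
The Sst window (chr16:23890795-23891094, minus strand) held the full CRE, whose first base lay at position -48 from the start. A full CRE was present in 1.79% of the 32851 windows of the same length in the RefSeq table. The Vip window (chr10:5638968-5639267, plus strand) held 1 CRE core and 3 TATA boxes, the nearest to the start at position -30. The CRE core occurred in 4 of the 13 windows, those of Gad2, Sst, Vip and Cck, against 20.8% of all windows, and the TATA box in 13.6% of all windows. The Gad2 window (chr2:22622077-22622376, plus strand) held 1 CRE core, whose first base lay at position -33. The Erbb4 window (chr1:69108010-69108309, minus strand) held none of the marked motifs. TAATTA was in none of the 13 windows and in 5.29% of all. These matches describe the letters in the windows and say nothing of binding.

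Library depth ran from 36272966 to 82990818 counted reads, and the sex read from the counts matched the label in 24 of 24 libraries. Plcg2 was 11.8 ± 3.1 CPM (read counts relative to TMM-scaled library size, mean ± SD, n = 6) in WT and 0.984 ± 0.159 CPM in Plcg2KO, but 12.0 ± 5.0 CPM in Plcg2HET. Trem2 was 82.5 ± 34.9 CPM in WT and 6.01 ± 1.21 CPM in Trem2KO. All 20 excitatory neuron genes of a fixed list were detected in the series, with summed levels of 6740 to 10400 CPM over the libraries. The Rn45s ribosomal RNA gene took over 5% of counts in 3 libraries, WT F1, Plcg2HET F1 and Plcg2HET F3. Plcg2HET M3 and Plcg2HET F2 stood apart from the other 4 Plcg2HET libraries. The trend of gene levels with GC content, given as Spearman's rho of a library's log2 level relative to the mean of all libraries, was -0.49 in M3 and -0.41 in F2 but 0.31 to 0.60 in the other 4. It ran from -0.62 to -0.32 in Plcg2KO, from -0.09 to 0.56 in Trem2KO and from -0.56 to 0.29 in WT. Results for Plcg2HET are therefore also given without M3 and F2, and genotype differences with offsets that remove each library's trend with GC content and exon length. In these bulk samples, more inhibitory cells and more RNA per cell cannot be told apart.

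Levels per length differed widely among the 10 genes. Averaged over 24 libraries, Cck reached 321.5 CPM per kilobase of exon and Sst 223.7, followed by Gad1 at 117.2, Npy at 88.2 and Pvalb at 73.5. Slc32a1 stood at 38.6, Gad2 at 33.5 and Vip at 20.2 CPM per kilobase. Lhx6 at 6.95 and Erbb4 at 2.14 CPM per kilobase were the lowest, yet the library with the fewest reads for Erbb4 still held 147. Erbb4 on chromosome 1 is also the gene with the longest span, 1068094 bases (chr1:68039966-69108059, mm10), with a transcript GC content of 40.6%.

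**Figure D1:**
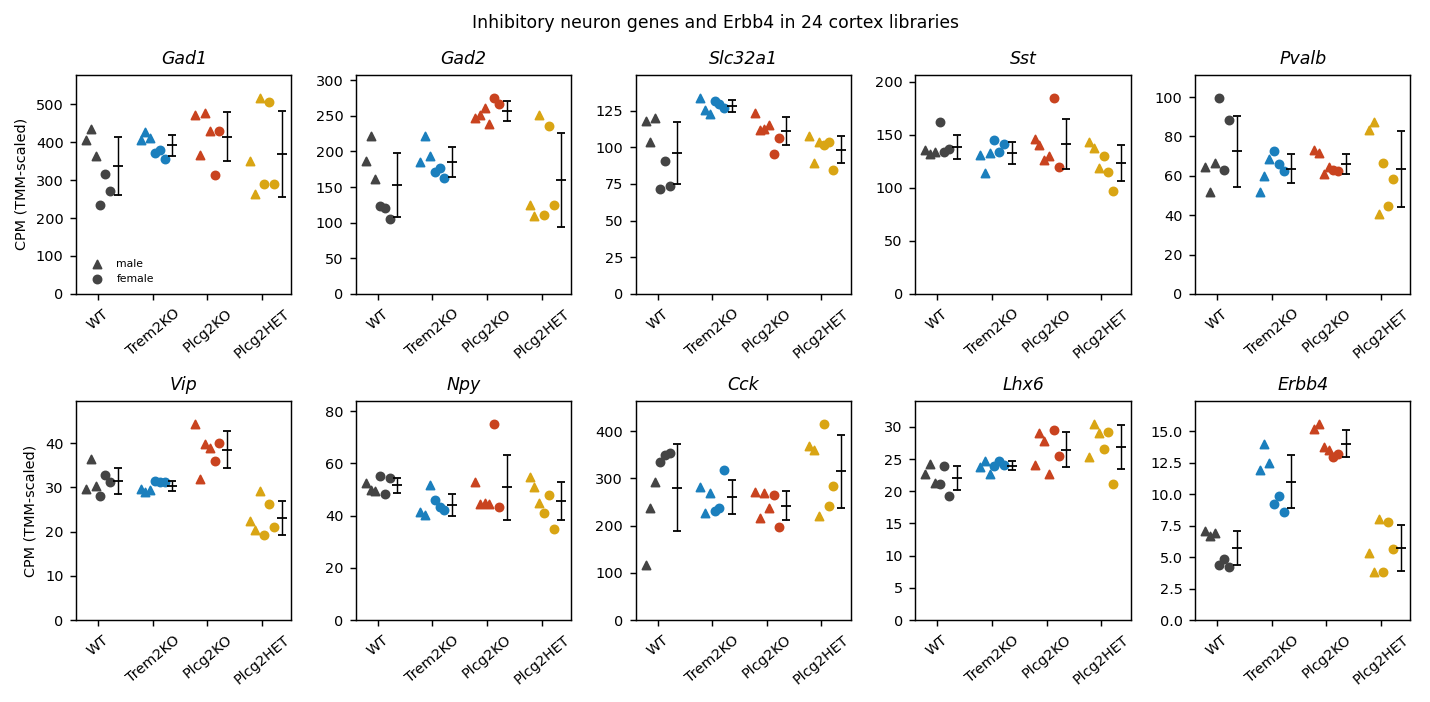
Each panel plots 1 gene, with the level in CPM on the vertical axis from 0 and the 4 genotypes along the horizontal axis; each symbol is 1 mouse (triangles male, circles female) and the bar gives the mean ± SD. Erbb4 lies above WT in all Trem2KO and Plcg2KO mice, Gad2 lies above WT in all Plcg2KO mice, and 2 Plcg2HET mice lie far above the other 4 for Gad1 and Gad2.

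Gad2 was higher in Plcg2KO than in any other genotype. Its lowest, median and highest levels were 238.7, 256.4 and 275.0 CPM in Plcg2KO, against 105.8, 142.5 and 222.0 CPM in WT. In Trem2KO they were 162.2, 180.7 and 222.2 CPM, and in Plcg2HET 108.9, 124.4 and 251.8 CPM. All 6 Plcg2KO mice lay above all WT and all Trem2KO mice, whereas Plcg2HET spanned the range from WT to Plcg2KO. The fitted log2 fold change, with sex in the model, was 0.74 (SE 0.18) for Plcg2KO against WT, a 1.67-fold difference, and 0.45 (SE 0.18) for Plcg2KO against Trem2KO. It was 0.29 (SE 0.18) for Trem2KO against WT, with overlapping ranges. With the GC and length offsets the Plcg2KO value was 0.57 and the Trem2KO value 0.34. The WT males, at 161.9 to 222.0 CPM, stood above the WT females, at 105.8 to 123.2 CPM. Among males alone the Plcg2KO log2 fold change was accordingly 0.38, and among females alone, with 2 Plcg2KO mice, it was 1.24.

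Gad1, whose product GAD67 makes most of the basal GABA, showed less of a separation. Its median was 340.8 CPM in WT (235.0 to 433.8), 392.0 in Trem2KO (356.0 to 427.0), 430.5 in Plcg2KO (312.5 to 478.5) and 319.8 in Plcg2HET (264.0 to 516.8). All 4 ranges overlapped, and each step in the order of the means was smaller than the larger SD of the pair. The log2 fold changes against WT were 0.27 (SE 0.15) in Plcg2KO, 0.23 (SE 0.15) in Trem2KO and 0.15 (SE 0.15) in Plcg2HET.

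Slc32a1 was highest in Trem2KO, unlike Gad2. The Trem2KO libraries lay between 122.4 and 133.6 CPM with a median of 128.1, all above the WT libraries, which ran from 71.8 to 120.3 CPM with a median of 97.0. Plcg2KO ran from 95.1 to 123.7 CPM (median 112.1) and Plcg2HET from 84.3 to 107.7 CPM (median 102.7), both within or overlapping the WT range. The log2 fold change against WT was 0.43 (SE 0.10) in Trem2KO, 0.18 (SE 0.10) in Plcg2KO and 0.05 (SE 0.10) in Plcg2HET. The transcript of Slc32a1 has the highest GC content of the 10 genes, 61.9%, and the GC and length offsets moved the Trem2KO value to 0.22 and the Plcg2KO value to 0.32. Plcg2KO against Trem2KO went from -0.25 to 0.10 with them, so that the order of the knockouts for Slc32a1 turned over. Within sexes the Trem2KO value was 0.16 in males and 0.74 in females. GABA neurons of the neighbouring striatum also use these 3 genes. The 17 striatal neuron genes of a fixed list were all detected, with summed levels of 1666 to 2223 CPM in WT, 1903 to 2080 in Trem2KO, 1814 to 2094 in Plcg2KO and 1867 to 2234 in Plcg2HET. None of the 17 passed the edgeR test in Plcg2KO against WT (4 at an unadjusted p under 0.05, and 1 by DESeq2). In Trem2KO against WT 2 were higher (11.8% beside 15.7% of all genes). In Plcg2HET against WT 3 were higher and 2 lower (29.4% beside 18%). In Plcg2KO against Trem2KO 2 were higher and 2 lower (23.5% beside 16.5%). The part of these levels in the GABA gene differences was not tested.

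Sst, Pvalb and Lhx6, the genes of the classes from the medial ganglionic eminence, had ranges that overlapped WT in every genotype. Sst, whose cells contact the dendrites of their targets, had medians of 134.3 CPM in WT (131.5 to 161.9), 133.3 in Trem2KO (114.1 to 144.6), 134.8 in Plcg2KO (120.0 to 184.6) and 124.2 in Plcg2HET (96.8 to 143.1). The log2 fold changes of Sst against WT lay between -0.17 and 0.03, each with an SE of 0.10. Pvalb, a calcium buffer of fast-spiking cells, had medians of 65.6 CPM in WT (52.0 to 99.6), 64.4 in Trem2KO (51.8 to 72.8), 63.9 in Plcg2KO (60.8 to 73.1) and 62.5 in Plcg2HET (40.4 to 87.3). Its log2 fold changes against WT were -0.12, -0.18 and -0.18 in Plcg2KO, Trem2KO and Plcg2HET, each with an SE of 0.16. The 95% intervals of these Pvalb differences together spanned -0.52 to 0.22. Lhx6 had medians of 21.95 CPM in WT (19.3 to 24.2), 24 in Trem2KO (22.7 to 24.7), 26.7 in Plcg2KO (22.7 to 29.5) and 27.8 in Plcg2HET (21.1 to 30.4). Its log2 fold changes were 0.26 (SE 0.09) in Plcg2KO, 0.12 (SE 0.09) in Trem2KO and 0.29 (SE 0.09) in Plcg2HET. The ranges overlapped in all 3, and the Plcg2HET value of Lhx6 was 0.12 with the offsets and 0.24 without Plcg2HET M3 and F2.

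Vip differed in both directions. Vip interneurons mainly inhibit other interneurons, and their peptide also dilates vessels. The median was 30.7 CPM in WT (28.0 to 36.5), 30.4 in Trem2KO (28.9 to 31.5), 39.3 in Plcg2KO (31.9 to 44.3) and 21.6 in Plcg2HET (19.3 to 29.1). The Plcg2KO libraries were all above the Trem2KO libraries, while all 6 Plcg2HET libraries lay under the WT median. The log2 fold change was 0.34 (SE 0.10) for Plcg2KO against Trem2KO, 0.29 (SE 0.10) for Plcg2KO against WT and -0.44 (SE 0.10) for Plcg2HET against WT. With the GC and length offsets these became 0.04, 0.22 and -0.24.

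Npy and Cck overlapped WT in every genotype. Npy, a peptide that dampens excitatory transmission, had medians of 51.1 CPM in WT (48.2 to 55.0), 42.8 in Trem2KO (40.2 to 51.7), 44.6 in Plcg2KO (43.5 to 75.0) and 46.4 in Plcg2HET (34.7 to 54.7). Its log2 fold changes against WT were -0.02, -0.22 and -0.17 in Plcg2KO, Trem2KO and Plcg2HET, each with an SE of 0.12. Without Plcg2KO F1, the mouse at 75.0 CPM, the Plcg2KO value of Npy was -0.19. Cck had medians of 313.6 CPM in WT (115.7 to 352.8), 252.9 in Trem2KO (227.5 to 317.7), 251.4 in Plcg2KO (196.7 to 270.2) and 322.2 in Plcg2HET (220.3 to 414.3). WT M1, at 115.7 CPM, was the lowest of the 24 libraries for Cck. The log2 fold changes of Cck against WT were -0.16, -0.09 and 0.19, each with an SE of 0.19, and without WT M1 they were -0.35 in Plcg2KO, -0.24 in Trem2KO and 0.02 in Plcg2HET.

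Erbb4 had the largest log2 fold change of the 10 genes in both knockouts. Its level was 4.21 to 7.11 CPM in WT with a median of 5.79, 8.57 to 13.97 in Trem2KO with a median of 10.89, and 12.97 to 15.57 in Plcg2KO with a median of 13.63. In Plcg2HET it was 3.81 to 8.01 CPM with a median of 5.52. Every Trem2KO and every Plcg2KO mouse lay above every WT mouse, and the Trem2KO mice also lay above every Plcg2HET mouse. The order of the means was Plcg2KO, Trem2KO, Plcg2HET and WT, and the last step of 0.051 CPM was far inside the larger SD of 1.84 CPM. The log2 fold change against WT was 1.27 (SE 0.15) in Plcg2KO, a 2.41-fold difference, and 0.95 (SE 0.15) in Trem2KO, a 1.94-fold difference. Plcg2KO exceeded Trem2KO by 0.31 (SE 0.15), with overlapping ranges. The separation was present in each sex, with 1.06 in males and 1.56 in females for Plcg2KO and 0.89 in males and 1.06 in females for Trem2KO. With the GC and length offsets the values were 1.08 in Plcg2KO and 1.06 in Trem2KO, and the difference between the knockouts was 0.02.

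Of the 10 genes, 2 passed an adjusted p of 0.05 in Plcg2KO against WT (Gad2 and Erbb4), in a comparison in which 13.1% of all tested genes did. In Trem2KO against WT 2 passed (Slc32a1 and Erbb4; 15.7% of all genes), in Plcg2HET against WT 2 (Vip lower and Lhx6 higher; 18% of all genes) and in Plcg2KO against Trem2KO 1 (Vip; 16.5%). Ranges did not overlap for 2 genes in Plcg2KO against WT (8.61% of all genes), 2 in Trem2KO against WT (11%), none in Plcg2HET against WT (3.56%) and 2 in Plcg2KO against Trem2KO (18.8%). Since these comparisons chose the genes, the shares are a description only. The comparisons against WT share the same 6 WT libraries.

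**Figure D2:**
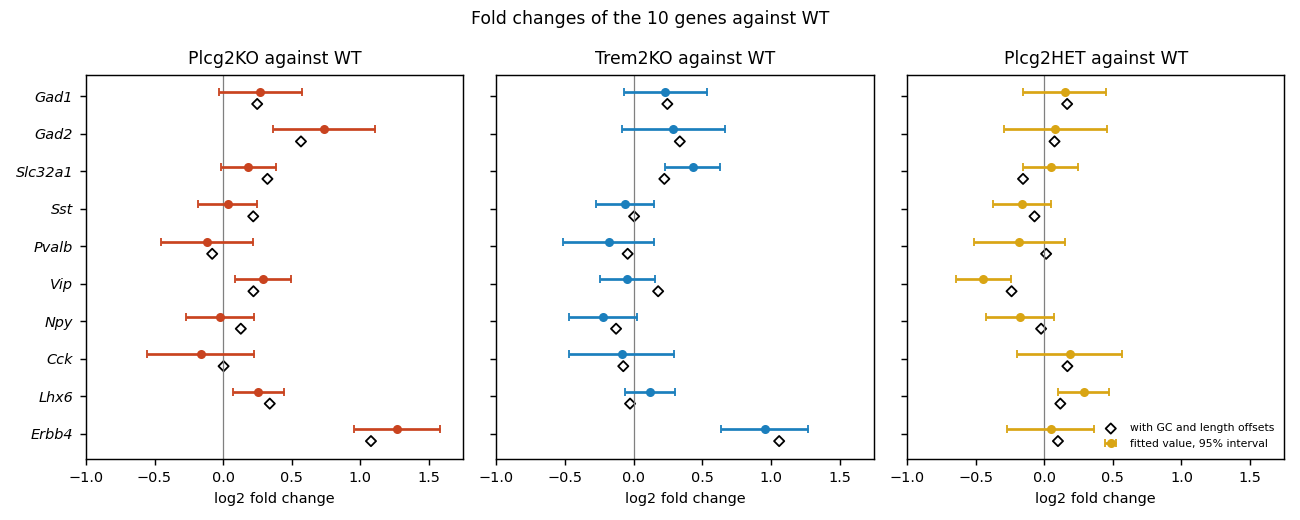
Log2 fold changes of the 10 genes against WT in Plcg2KO, Trem2KO and Plcg2HET, with circles and bars for the fitted value and its 95% interval and open diamonds for the value with GC and length offsets. Erbb4 stands at 1.27 and 0.95 in the knockouts and near 0 in Plcg2HET, and its diamonds at 1.08 and 1.06 are closer to each other than its circles.

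Within Plcg2HET, M3 and F2 carried 251.8 and 235.6 CPM of Gad2, against 108.9 to 124.6 CPM in the other 4 mice. Gad1, Vip and Erbb4 were likewise higher in this pair than in all of the other 4, at 516.8 and 505.6 against at most 350.5 CPM for Gad1 and 8.01 and 7.81 against at most 5.66 CPM for Erbb4. Pvalb and Cck were lower in the pair, at 40.4 and 44.8 against at least 58.4 CPM for Pvalb and 220.3 and 241.4 against at least 284.1 CPM for Cck. Slc32a1, Sst, Npy and Lhx6 lay inside the range of the other 4. Without the pair, the Plcg2HET log2 fold change against WT was -0.35 for Gad2, -0.27 for Erbb4, -0.15 for Gad1 and -0.59 for Vip, against 0.08, 0.05, 0.15 and -0.44 with it. The sign of the first 3 thus rested on those 2 mice, and the labels give nothing that sets them apart.

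Part of this pattern was also found outside Plcg2HET. After genotype means were subtracted, log2(CPM + 0.5) of Gad1 correlated over the 24 libraries with Gad2 (Pearson's r 0.84, Spearman's rho 0.777), Erbb4 (0.819 and 0.807), Vip (0.75 and 0.65) and Slc32a1 (0.696 and 0.705). It ran against Pvalb (-0.747 and -0.694) and Cck (-0.583 for both). The permutation p was 1e-05 for Gad2 and Erbb4 on both measures, the smallest that 100000 permutations can give, and the Benjamini-Hochberg values of r over the family of 29 correlations were 9.67e-05 for these, 0.000456 for Vip, 0.000653 for Slc32a1, 0.000218 for Pvalb and 0.00593 for Cck. Those of rho were 0.000145 for Gad2 and Erbb4 and between 0.00167 and 0.0101 for the other 4. The permutations shuffled all 24 libraries, not those within a genotype or sex, and so take them as alike in spread. The SD of Gad1 was however 113.7 CPM in Plcg2HET and 27.1 CPM in Trem2KO, and the permutation p-values do not allow for this. With the 2 libraries farthest out in Gad1 removed, Plcg2HET M3 and WT F1, r was 0.812 for Gad2, 0.777 for Erbb4, 0.666 for Vip, 0.663 for Slc32a1, -0.637 for Pvalb and -0.505 for Cck. Over the 18 libraries outside Plcg2HET, r was 0.689 for Gad2, 0.719 for Erbb4, 0.528 for Vip, 0.808 for Slc32a1, -0.671 for Pvalb and -0.498 for Cck. The genotypes were not alike. Within the 6 mice of each, r of Gad1 with Gad2 was 0.89 in WT, 0.946 in Trem2KO and 0.971 in Plcg2HET but -0.474 in Plcg2KO, where F1 had the lowest Gad1 (312.5 CPM) and the highest Gad2 (275.0 CPM). For Erbb4 it was 0.913, 0.996 and 0.919 in the first 3 and 0.212 in Plcg2KO, and for Pvalb -0.927, -0.362 and -0.817 against 0.030. For Vip it was -0.95 in Trem2KO, and for Slc32a1 -0.327 there, whereas both were positive in the other 3 genotypes. Sst (r -0.456, rho -0.55, adjusted permutation p 0.0514 and 0.0168) fell on opposite sides of the threshold, and Npy (-0.172) and Lhx6 (0.205) showed no relation past it. The 4 peptide and parvalbumin genes with negative r, Pvalb, Cck, Sst and Npy, have exons that sum to 545 to 903 bases. The 5 genes with positive r have 1527 to 5625 bases. Sex was not removed from these values. In WT, Gad1 was 365.1 to 433.8 CPM in males and 235.0 to 316.4 CPM in females, and Gad2, Slc32a1 and Erbb4 also did not overlap between the sexes. The part of sex in the correlations was not tested. The libraries also share depth, handling and base composition in these values, so the correlations describe the libraries.

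**Figure D3:**
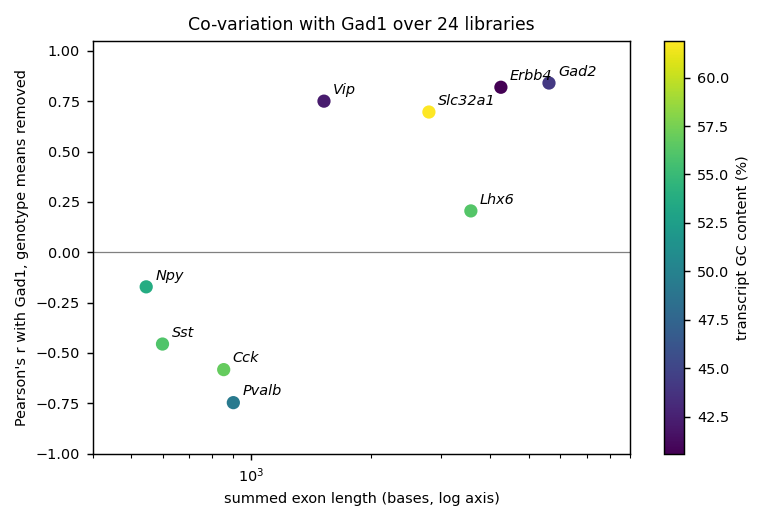
Each point is 1 gene, with its summed exon length in bases on a log axis, its Pearson's r with Gad1 over 24 libraries after removal of genotype means on the vertical axis, and its transcript GC content as colour. The 4 shortest genes lie between -0.747 and -0.172 and the 5 longer ones between 0.205 and 0.84.

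The GC trend of a library moved with the same genes. After genotype means, but not sex, were removed, its r was -0.845 with Gad2 (rho -0.695), -0.731 with Gad1 (-0.686), -0.724 with Erbb4 (-0.599) and -0.665 with Vip (-0.511). It was 0.621 with Pvalb (0.47) and 0.52 with Cck (0.612). The Benjamini-Hochberg values of the permutation p of r were 9.67e-05, 0.00029, 0.00029, 0.00168, 0.00334 and 0.0225 in that order, and those of rho were at most 0.0456. The trend was computed from the levels of all genes in the same libraries. A gene of low GC content, such as Erbb4 at 40.6%, can therefore run against it by construction. These p-values are thus not those of an independent test. Without Plcg2HET M3 and F2, and with genotype means taken over the remaining 22 libraries, r was -0.621 for Gad2, -0.454 for Gad1, -0.498 for Erbb4, -0.295 for Vip, 0.232 for Pvalb and 0.343 for Cck. Within Plcg2KO alone it was 0.050 for Gad2 and 0.478 for Erbb4, against -0.945 and -0.841 in Trem2KO. Slc32a1 (-0.115), Npy (0.0287) and Lhx6 (-0.146) showed no such relation past the threshold, and Sst (0.397, rho 0.49) passed it only by rho. The summed striatal genes correlated past the threshold with Slc32a1 alone (r 0.554, adjusted permutation p 0.013; rho 0.405, adjusted 0.0926), and without WT F3 and WT M3 r was 0.296, so that this relation rested on those 2 libraries. The median GC trend was -0.063 in WT, 0.369 in Trem2KO and -0.499 in Plcg2KO. Beside the values with offsets, 0.57 for Gad2 and 1.08 for Erbb4 in Plcg2KO and 0.34 and 1.06 in Trem2KO, its part in the genotype differences was not tested.

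**Figure D4:**
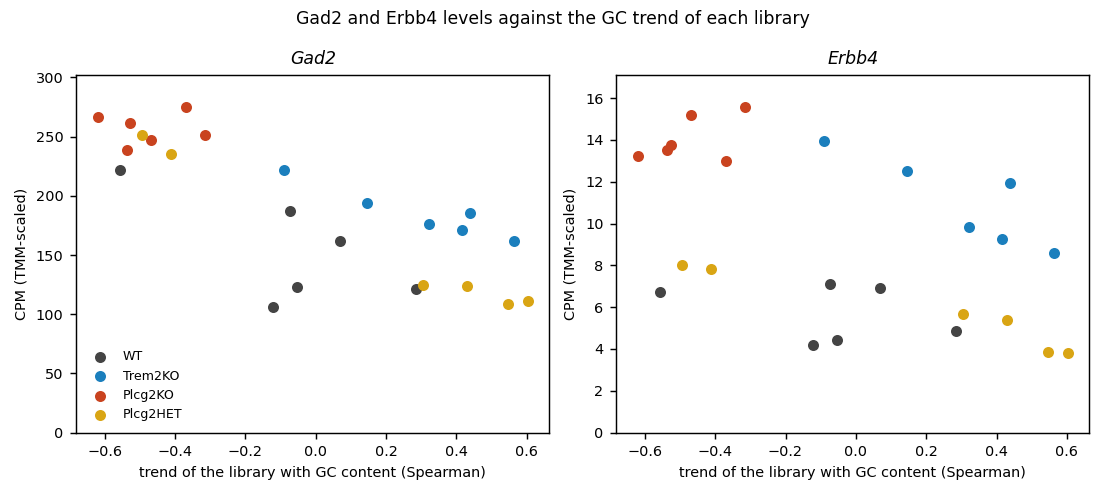
Level of Gad2 (left) and Erbb4 (right) in CPM against the GC trend of each library (Spearman's rho, no unit), 1 point per mouse, coloured by genotype. Trem2KO mice at trends from -0.09 to 0.56 have Erbb4 levels of 8.57 to 13.97 CPM, above all WT mice, and the Plcg2HET pair at -0.49 and -0.41 has Gad2 levels near those of Plcg2KO.

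The genes whose levels were most like those of Gad2 over the 24 libraries were Plcb1 (Pearson's r 0.98), Cntn1 (0.97) and Mctp1 (0.97), and r after removal of genotype means was 0.97, 0.96 and 0.95. Those most like Erbb4 were Nbea (0.97), Trpm3 (0.97) and Ptprz1 (0.96), with 0.94, 0.92 and 0.85 after removal. Gad1 was most like Wdr47, Slc23a2 and Inpp4a (0.95 each), and Slc32a1 most like Spock2 (0.95), Slc25a22 (0.94) and Prrc2b (0.93). Pvalb was most like Sepw1 (0.95), Mrpl11 (0.94) and Rpl27 (0.93), and Cck most like Ttc9b (0.92), H2afx (0.89) and H2afj (0.87). Vip was closest to Fut8 (0.94), Paics (0.93) and B230219D22Rik (0.92). Likeness was lower for Npy, with Ebna1bp2 (0.86), Ngfrap1 (0.78) and Olfm1 (0.77), for Lhx6, with Wipf3 (0.81), Ssbp2 (0.80) and Klc1 (0.79), and for Sst, with Mapkapk5 (0.80), Tsg101 (0.80) and Prkrip1 (0.79). The 10 genes themselves were left out of this search. Only Ptprz1 was on the lists of further interneuron genes.

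The sexes were compared because sex had no part in the choice of the genes. None of the 10 genes passed edgeR's quasi-likelihood test of males against females, in which 2.37% of all genes did, and DESeq2 also called none. At an unadjusted p under 0.05 both tools gave 3. Erbb4 was 10.3 ± 4.1 CPM in 13 males and 7.70 ± 3.41 CPM in 11 females (log2 difference 0.31, SE 0.11, edgeR adjusted p = 0.194). Slc32a1 was 114.3 ± 11.6 against 101.3 ± 21.1 CPM (0.19, SE 0.07, edgeR adjusted p = 0.238) and Gad1 409.9 ± 64.5 against 341.5 ± 77.9 CPM (0.25, SE 0.11, edgeR adjusted p = 0.343). Without Plcg2HET F2, 2 of the 10 genes passed. In WT, Erbb4 was 6.73 to 7.11 CPM in males and 4.21 to 4.85 CPM in females, with no overlap. The trend of gene levels with exon length differed between the same WT mice, at 0.16 to 0.18 in males and -0.47 to -0.22 in females, and its part in the difference was not tested. Whether genotype differences depended on sex was tested by interaction, and none of the 10 genes passed in Plcg2KO, Trem2KO or Plcg2HET against WT, nor did any gene at all (0, 0 and 0% of all genes). At an unadjusted p under 0.05, edgeR gave 2, 1 and 3 of the 10 and DESeq2 3, 1 and 4. For Gad2 in Plcg2KO the female minus male effect was 0.83 (95% interval 0.10 to 1.55, edgeR adjusted p = 0.636), and for Slc32a1 in Trem2KO it was 0.56 (0.22 to 0.90, edgeR adjusted p = 1).

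Beyond the 10 genes, 114 further genes in 6 lists covered the same biology, and 112 could be tested. Since the lists were chosen with earlier results of these data known, their shares beside all genes are a description only. In Plcg2KO against WT, 23 of the 112 were higher and 3 lower by edgeR's quasi-likelihood test at an adjusted p under 0.05, which is 23.2% of them beside 13.1% of all genes, and their median log2 fold change was 0.18 against -0.0035 for all genes. In Trem2KO against WT 26 were higher and 4 lower (26.8% beside 15.7%), with a median of 0.11 against -0.02 for all genes. In Plcg2HET against WT 11 were higher and 3 lower, a smaller share than among all genes (12.5% beside 18%), with a median of 0.05 against -0.0064. Without Plcg2HET M3 and F2 that count was 49, with 19 higher and 30 lower. In Plcg2KO against Trem2KO 8 were higher and 8 lower, also a smaller share than among all genes (14.3% beside 16.5%), and without Trem2KO M1 5 passed. Ranges did not overlap for 13 of the 112 in Plcg2KO against WT (11.6% beside 8.61% of all genes) and 23 in Trem2KO against WT (20.5% beside 11%). The numbers were 2 in Plcg2HET against WT (1.79% beside 3.56%) and 16 in Plcg2KO against Trem2KO (14.3% beside 18.8%). Without Plcg2KO F1 the count in Plcg2KO against WT was 17, and with males alone it was 2 in Plcg2KO and 1 in Trem2KO. With the GC and length offsets 29 were higher and 3 lower in Plcg2KO, 23 and 8 in Trem2KO and 9 and 12 in Plcg2HET, so that the split in Plcg2HET turned over. The share of all genes that passed in each refit is not given here. The refit counts therefore describe the fits, and nothing particular to the 112 genes is read from them.

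Of 16 genes of GABA transport, breakdown and the inhibitory synapse, 4 rose and 1 fell in Plcg2KO (31.2% beside 13.1% of all genes) and 7 rose in Trem2KO (43.8% beside 15.7%), so that most did not pass in either. Slc6a11, the GABA transporter GAT3 of astrocytes, rose in Plcg2KO from 154.7 ± 35.1 to 222.7 ± 17.3 CPM (log2 fold change 0.52, SE 0.11, edgeR adjusted p = 0.00131) and in Trem2KO to 232.4 ± 10.2 CPM (0.59). Gphn, the scaffold protein gephyrin of inhibitory synapses, rose by 0.40 and Abat, the enzyme that breaks GABA down, by 0.42 in Plcg2KO. Slc12a5, the chloride exporter KCC2 that makes GABA inhibitory, rose by 0.56 in Trem2KO, from 521.7 ± 107.0 to 764.4 ± 48.1 CPM, and by 0.41 in Plcg2HET (0.48 without M3 and F2). The vesicular amino acid transporter Slc6a17 rose by 0.43 in Trem2KO. In Plcg2HET Slc6a11 rose by 0.38 and Slc6a13, another GABA transporter, by 0.62, and without M3 and F2 these were 0.39 and 0.90. Between the knockouts, Nlgn2, the neuroligin of inhibitory synapses, Slc6a17 and the amino acid transporter Slc38a5 were lower in Plcg2KO, by -0.47, -0.43 and -1.09.

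Of 21 interneuron transcription factors, 6 rose and 1 fell in Plcg2KO (33.3% beside 13.1% of all genes). In Trem2KO 2 rose and 1 fell, a share near that of all genes (14.3% beside 15.7%). Nkx2-1, which specifies the medial ganglionic eminence in the embryo, was low throughout and rose from 0.890 ± 0.214 CPM in WT to 1.46 ± 0.20 in Plcg2KO (0.70, edgeR adjusted p = 0.00475), 1.52 ± 0.20 in Trem2KO (0.78) and 1.40 ± 0.22 in Plcg2HET (0.66, and 0.56 without M3 and F2). The nuclear receptor gene Nr2e1 rose by 0.44 in Plcg2KO and was higher there than in Trem2KO by 0.38, as were Etv1 (0.45) and Dlx6os1, an RNA of the Dlx5/6 locus (0.52).

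Among 31 interneuron subclass genes, 7 rose and 1 fell in Plcg2KO (25.8% beside 13.1%), and 7 rose and 2 fell in Trem2KO (29% beside 15.7%). Nos1, the nitric oxide synthase of long-range and neurogliaform cells, rose from 51.1 ± 11.4 CPM in WT to 91.0 ± 7.3 in Plcg2KO (0.83, SE 0.11, edgeR adjusted p = 4.09e-06) and to 100.6 ± 3.6 in Trem2KO (0.99, SE 0.11, edgeR adjusted p = 6.05e-07). In Plcg2HET Nos1 was 74.3 ± 4.0 CPM (0.55, and 0.57 without M3 and F2). All mice of these 3 genotypes lay above all WT mice for Nos1. Reln, the secreted protein reelin of superficial interneurons, rose by 0.67 in Trem2KO, and Ptprz1, a receptor phosphatase also made by glial precursors, by 0.66 in Plcg2KO. Hpse, the heparanase gene, fell from 5.03 ± 2.55 CPM in WT to 1.29 ± 0.32 in Plcg2KO (-1.70, edgeR adjusted p = 4.57e-06) and 1.84 ± 0.33 in Trem2KO (-1.36). In the same comparisons 14 of 15 microglial genes fell in Plcg2KO (93.3% beside 13.1%) and 13 of 15 in Trem2KO (86.7% beside 15.7%). The 15 summed to 1167 to 2020 CPM in WT, 629 to 1019 in Plcg2KO and 765 to 1085 in Trem2KO, with none at 0, and their part in the fall of Hpse was not tested. Of 10 endothelial genes 8 fell in Plcg2KO against WT (80% beside 13.1%), with a median of -0.66. In Plcg2KO against Trem2KO 6 were lower (60% beside 16.5%), with a median of -0.52. The 10 summed to 133.9 to 221.5 CPM in WT, 96.1 to 125.7 in Plcg2KO and 126.4 to 184.4 in Trem2KO, with none at 0, and their part in the Plcg2KO differences of the inhibitory neuron genes was not tested. In Plcg2HET Crhbp, which binds corticotropin-releasing hormone, fell by 0.35 on the log2 scale, and Id2, an inhibitor of helix-loop-helix factors, by 0.36. Without M3 and F2 these were -0.40 and -0.24, and Id2 no longer passed (edgeR adjusted p = 0.053). Tac1 (0.34), Pthlh (0.50) and Tnfaip8l3 (0.38) were higher in Plcg2KO than in Trem2KO.

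Of 15 fast-spiking and perineuronal net genes, which surround or equip parvalbumin cells, 3 rose in Plcg2KO (20% beside 13.1%) and 5 in Trem2KO (33.3% beside 15.7%), and none fell, while the ranges of Pvalb itself overlapped WT in both. Tnr, the matrix protein tenascin-R, rose by 0.54 in Plcg2KO (37.2 ± 7.2 to 54.7 ± 3.8 CPM, edgeR adjusted p = 0.000558) and by 0.57 in Trem2KO. Hapln1, a link protein of the nets, rose by 0.69 in Plcg2KO and was higher there than in Trem2KO by 0.82, with no overlap of the ranges in either comparison. Syt2, a calcium sensor of fast release, rose by 0.36 and 0.49 in Plcg2KO and Trem2KO. Kcnc1, the potassium channel Kv3.1, rose by 0.38 in Trem2KO and was lower in Plcg2KO than in Trem2KO by -0.33, as was Hapln4 by -0.30. Bcan, the net proteoglycan brevican, rose by 0.57 in Plcg2HET, and by 0.88 without M3 and F2.

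In the neuregulin and ErbB pathway, 3 of 16 tested genes rose in Plcg2KO (18.8% beside 13.1%) and 3 rose and 1 fell in Trem2KO (25% beside 15.7%). Egfr, the founding member of the receptor family, rose by 0.50 in Plcg2KO (8.41 ± 1.63 to 12.0 ± 1.4 CPM, edgeR adjusted p = 0.00273). Cntnap4, a presynaptic protein of interneurons, rose by 0.39 in Plcg2KO and 0.61 in Trem2KO, and the receptor gene Neo1 by 0.33 and 0.43. Adam17, a protease that sheds neuregulins and other membrane proteins, fell by 0.56 on the log2 scale in Trem2KO. Erbb3 was lower in Plcg2KO than in Trem2KO by -0.48. In Plcg2HET Dlg4, the scaffold PSD-95 that binds ErbB4, rose by 0.40 and the ligand gene Hbegf by 0.30, and without M3 and F2 these were 0.59 and 0.40. Of 13 receptors for interneuron peptides, none passed in Plcg2KO, where DESeq2 also called none and both tools gave 3 at an unadjusted p under 0.05. In Trem2KO Adcyap1r1, a receptor for the peptide PACAP, rose by 0.47 and the low somatostatin receptor gene Sstr5 by 0.82, and Adcyap1r1 rose by 0.31 in Plcg2HET (0.29 without M3 and F2). Sstr5 was lower in Plcg2KO than in Trem2KO by -0.68.

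**Figure D5:**
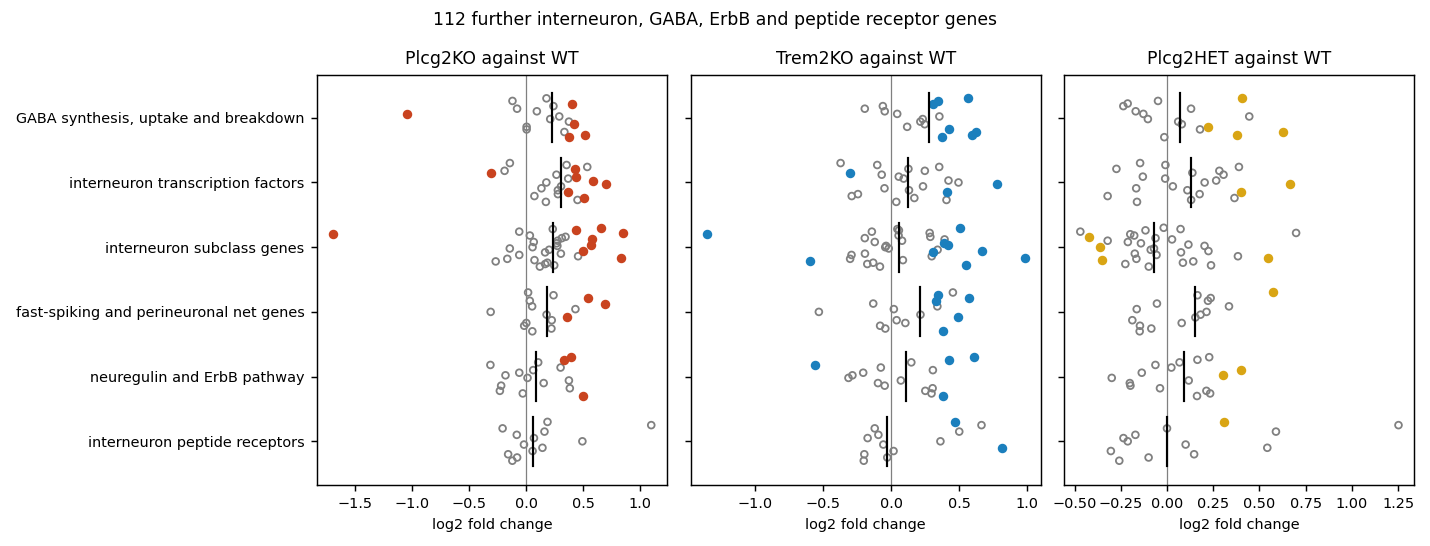
Log2 fold changes against WT of 112 further genes in 6 lists for Plcg2KO, Trem2KO and Plcg2HET, 1 point per gene, filled where the gene passed the edgeR test and open where it did not, with a vertical bar at the median of each list. Most filled points lie to the right of 0 in the knockouts, with Hpse at -1.70 and -1.36 as the leftmost.

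Lists of other neurons and regions were read beside these. Of 20 excitatory neuron genes 1 rose and none fell in Plcg2KO (5% beside 13.1% of all genes), with a median of 0.155. In Trem2KO 3 rose and 1 fell (20% beside 15.7%), with a median of -0.01. Of 14 pan-neuronal genes none passed by edgeR in Plcg2KO (3 at an unadjusted p under 0.05, and 1 by DESeq2), with a median of -0.02. In Trem2KO 1 rose and 1 fell (14.3% beside 15.7%), with a median of -0.10. In Plcg2HET 3 rose and 1 fell (28.6% beside 18%), with a median of -0.03. Lists for regions next to the cortex passed in shares above and below those of all genes. Of 10 tested thalamic, septal and hypothalamic genes 3 rose in Plcg2KO (30% beside 13.1% of all genes), with a median of 0.39. In Trem2KO 1 rose (10% beside 15.7%), with a median of 0.15, and in Plcg2HET 4 (40% beside 18%), with a median of 0.43. None of them fell. Of 10 hippocampal genes 2 rose in Plcg2KO (20% beside 13.1%) and 1 in Trem2KO (10% beside 15.7%), with medians of 0.36 and 0.175. In Plcg2HET 1 rose and 1 fell (20% beside 18%), with a median of 0.13. Of 10 olfactory bulb and neuroblast genes 2 rose and 1 fell in Trem2KO (30% beside 15.7%), with a median of 0.51. None passed by edgeR or DESeq2 in Plcg2KO (1 at an unadjusted p under 0.05 by both), with a median of 0.07. None passed by either in Plcg2HET (3 at an unadjusted p under 0.05 by both), with a median of 0.31. The medians of the thalamic and hippocampal lists in both knockouts, and of the olfactory list in Trem2KO, were thus above those of the 112 inhibitory neuron genes, 0.18 and 0.11. Summed levels of the hippocampal genes were 281.2 to 400.2 CPM in WT, 348.1 to 394.8 in Plcg2KO and 414.6 to 471.3 in Trem2KO, and those of all 12 listed thalamic, septal and hypothalamic genes 95.7 to 139.9, 119.8 to 136.9 and 90.8 to 126.5 CPM. Those of the olfactory list were 61.1 to 84.0, 64.8 to 78.4 and 61.8 to 102.4 CPM. Immediate early genes, which follow neuronal activity and handling at death, were higher for 4, 11 and 9 of 16 in Plcg2KO, Trem2KO and Plcg2HET, with none lower. These shares were 25%, 68.8% and 56.2%, beside 13.1%, 15.7% and 18% of all genes. Their summed level was 773 to 1226 CPM in WT, 1109 to 1499 in Plcg2KO, 1036 to 1496 in Trem2KO and 1311 to 1760 in Plcg2HET. The part of these levels in the differences above was not tested.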

How the data were processed

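Bulk RNA of the cortex was sequenced, 1 library per mouse, with the KAPA mRNA Hyperprep kit per the labels' protocols. The authors deposited whole-number read counts per gene with a summed exon length, per the file headers, and a further table of expected counts, TPM and FPKM, with no tool named for it. Tools listed in the submitters' processing notes were STAR 2.7.10a and featureCounts 2.0.3, with the mouse build mm10. Strand handling is not given. The read counts were the input for every level and test. The deposited expected counts, rounded, served as an alternative input, and the deposited TPM and FPKM were not used.

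Genes were filtered with filterByExpr (minimum count 10), scaled by TMM and fitted with edgeR 4.0.16 (R 4.3.3; quasi-likelihood F-test, robust, 1 mean per genotype plus sex, all 24 libraries), with Benjamini-Hochberg adjustment over 16316 genes and a threshold of 0.05. Interactions used 1 mean per genotype and sex. DESeq2 1.42.0 was an alternative. The edgeR fit was tested on simulated data with 200 changed genes. Levels are TMM-scaled CPM, and correlations used log2(CPM + 0.5) with 100000 permutations over all 24 libraries, not within genotypes or sexes. GC and length offsets were natural splines per library, fitted on the 96.2% of tested genes with a GC content in the GENCODE transcripts.

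The 10 genes, the lists of further genes and the tests were chosen with earlier results of these data known. Named further genes are, per list and comparison, up to 3 that passed with the smallest p, some of which are not reported here; likeness covers the 3 highest r per gene among tested genes with a mean log2 CPM of at least 1. The fewest reads of any of the 10 genes in a library was 147, and the part of depth in the precision was not tested. The edgeR p-values measure the spread between mice within genotypes. Animal numbers in the labels run apart by genotype, so a difference between cohorts could not be told from one of genotype. Alternatives were other scaling, filter, test and input, no sex term, a block by label code, sexes alone, the compared genotypes alone, the offsets, and libraries left out. Correlations by genotype and fits without Plcg2HET M3 and F2 were added after seeing the data.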

Additional observations from a re-analysis of the deposited data

Results flagged for a closer look

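In WT, Sst was 162 CPM in WT F1, while the other 5 WT libraries lay between 131.5 and 136.5 CPM. In Plcg2KO, Npy was 75.0 CPM in Plcg2KO F1, while the other 5 lay between 43.5 and 52.8 CPM. Both are single libraries far from the rest of their genotype by Dixon's test, in which the gap to the nearest library is set against the range. Of 40 combinations of gene and genotype examined, these 2 passed, and chance alone passes about 1 in 20. In WT F1, Rn45s took 9.59% of counts. Plcg2KO F1 also had the highest Sst of the 24 libraries, 184.6 CPM.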

How the results depend on the processing

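Over 1440 refitted fold changes of the 10 genes, 25 moved by at least the pooled SD within genotypes, and no value that had passed 0.05 changed sign. Signs of the other values were not counted. The bar was wide, with an SD of 0.303 for Erbb4 and 0.302 for Gad1 on the log2 scale. The Erbb4 difference between the knockouts went from 0.31 to 0.02 with the offsets and did not count as moved. Neither did Gad1 in Plcg2HET against WT, which went from 0.15 to -0.15 without Plcg2HET M3 and F2. Each fold change had 24 refits with 1 library left out, and none of the 25 came from these. All came from the 12 other alternatives per fold change. The most was 3 of 12, for Slc32a1 in Trem2KO, a value that had passed, and in Plcg2HET against WT. The counts of the 112 further genes that passed depended more on the libraries and the fit. How many of all genes passed in the same refits is not given here, and that number may have moved likewise. In Plcg2KO against WT (26 genes) the count was 2 in males alone and 41 without Plcg2HET M3 and F2, an alternative chosen after seeing the data, and 17 to 30 when each library was left out in turn, the lowest without Plcg2KO F1. In Trem2KO against WT (30 genes) it was 1 in males alone, 50 with the compared genotypes alone and 22 to 35 with 1 library left out. In Plcg2HET against WT (14 genes) it was 2 in females alone, 0 in males alone, 1 with the compared genotypes alone, 2 when the 3 libraries with over 5% Rn45s were dropped and 49 without Plcg2HET M3 and F2, of which 19 were higher and 30 lower. Of the 12 further genes chosen for naming there, 11 passed without that pair, all in the same direction. Leaving out 1 library gave 9 to 23, with 9 without Plcg2HET F1 or WT M2, 22 without Plcg2HET M3 and 23 without Plcg2HET F2. In Plcg2KO against Trem2KO (16 genes) it was 0 in females and in males alone, 10 with the GC and length offsets, 44 with the compared genotypes alone and 31 without Plcg2HET M3 and F2. Leaving out 1 library gave 5 to 23, with 5 without Trem2KO M1, 7 without Plcg2KO F1, 8 without Trem2KO F1 or F3 and 9 without Plcg2KO F2. Among the 10 genes, 0 to 2 differed by sex with 1 library left out (1 without Plcg2HET M2, 2 without Plcg2HET F2), and 0 to 1 had a sex difference of the Plcg2HET effect (1 without Plcg2HET M3). The fits by sex and by pairs of genotypes have fewer libraries; the cause of the other shifts was not tested.

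The labels do not say whether the codes (M1 to M4, F1 to F3) pair the mice. Of 33 same-coded pairs, 21 had correlated deviations above 0.1, with r from -0.379 to 0.565. No pairs with different codes were set beside them, and the code also carries sex. These values therefore cannot tell whether the codes pair the mice. With the code as a replicate block the counts were 22 in Plcg2KO, 30 in Trem2KO and 12 in Plcg2HET against WT, and 7 in Plcg2KO against Trem2KO. Erbb4, with the fewest reads (147 in 1 library), is the gene for which depth limits precision most.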
